A study of Mus musculus with 9 samples.

Results

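The genes described here encode the matrix metalloproteinases (MMPs), the ADAMTS proteases and the tissue inhibitors of metalloproteinases (TIMPs). They were taken by symbol from the protein-coding genes of GENCODE M21 on chromosomes 1 to 19, X and Y, as every *Mmp* gene with a number, every *Adamts* gene with a number alone, and *Timp1* to *Timp4*. This gave 45 of 21938 genes, of which 22 were MMP, 19 ADAMTS and 4 TIMP genes. *Mmp1a* is annotated there as a polymorphic pseudogene and was not included.

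The authors used chromatin immunocleavage sequencing (ChIC-Seq) in primary oviductal muscle cells taken from WT mice, aged 8 to 12 weeks and mated with stud males, on D2 of pregnancy. The cells were released from pieces of oviduct by enzymatic digestion, filtered without a sort and kept in dishes for some hours, and 50000 fixed cells went into each library. An antibody against PBRM1 (also named Baf180, the polybromo subunit of the PBAF form of SWI/SNF) or BRG1 (the ATPase of SWI/SNF complexes) directed a protein A-micrococcal nuclease fusion to chromatin, which was cut and sequenced. There were 3 libraries for each antibody, all from WT cells, and 3 IgG samples that were not analysed here. Nothing in the labels ties a library to 1 animal or culture, so p-values measure the spread between these libraries only.

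Each library had its own peak list, with 31970 to 39467 peaks. These came from 18126049 to 23992352 fragments for PBRM1 and 14284532 to 15897724 for BRG1. The 3 libraries of an antibody were also pooled for a joint peak list. Promoters of 5 of 8 smooth muscle markers (*Acta2*, *Cald1*, *Mylk*, *Smtn* and *Tagln*) had a peak in all 6 library lists, against 41.4% of all protein-coding genes. *Des* had a peak in 1 PBRM1 and 3 BRG1 lists, *Myh11* in 1 BRG1 list alone, and *Cnn1* in 0 of the 6. None of 4 blood and immune markers had a promoter peak in any of the 8 lists. No marker of the oviduct epithelium or of fibroblasts was found in all 6 library lists, with 0 to 2 of 7 and 1 to 4 of 6 markers found per library, whereas *Tek*, 1 of 4 endothelial markers, was found in all 6. The pooled PBRM1 and BRG1 lists held 4 and 6 of the 7 epithelial markers and 5 and 5 of the 6 fibroblast markers. They held 7 and 7 of the 8 smooth muscle markers. Of the fibroblast markers, *Thy1* had a peak in 3 PBRM1 and 2 BRG1 library lists. *Dcn*, a fibroblast marker, had a promoter peak in 3 of 3 BRG1 and 0 of 3 PBRM1 lists. A peak records cutting near the antibody's target, and not the level of a transcript, and in these bulk libraries more cells with a site and more cutting per cell cannot be told apart. The part of other cell types in the results was not tested.

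MMPs are zinc-dependent proteases that cleave the extracellular matrix, either after secretion or at the cell surface. ADAMTS proteases are secreted and carry thrombospondin repeats, and they process proteoglycans and the amino-terminal propeptides of procollagens, among others. TIMPs bind and inhibit these enzymes, and *Timp3* stays bound to the matrix. In muscular tubes these genes are known for the turnover of the matrix between smooth muscle cells. Many MMP genes are known to be switched on by AP-1 factors acting close to a TATA box, while most promoters rich in CpG lack one.

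Promoter sequences are shown for members with and without peaks. They are the 250 bases before the start that RefSeq gives on GRCm38.p6, 5′ to 3′ on the strand of the gene, where this window overlapped no annotated exon. *Mmp11* (chr10:75932503-75932752, minus strand), *Adamts17* (chr7:66839485-66839734, plus strand) and *Adamts12* (chr15:11064523-11064772, plus strand) had the highest promoter signal among members with such an entry and a peak in all 6 lists. *Adamts1* (chr16:85803114-85803363, minus strand) is shown for its BRG1 signal, and *Mmp13* (chr9:7272264-7272513), *Mmp3* (chr9:7445572-7445821) and *Mmp7* (chr9:7691840-7692089), all on the plus strand, as a collagenase, a stromelysin and a matrilysin without a peak in any list. These 4 were chosen after their values were seen. Capitals mark each TGANTCA (the AP-1 motif), TATAAA and GGGCGG, searched on both strands.
Mmp11: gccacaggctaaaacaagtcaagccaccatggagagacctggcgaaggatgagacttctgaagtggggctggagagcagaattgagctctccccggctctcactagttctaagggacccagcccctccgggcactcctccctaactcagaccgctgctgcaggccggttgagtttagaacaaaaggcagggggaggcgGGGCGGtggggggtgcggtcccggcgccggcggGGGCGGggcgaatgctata
Adamts17: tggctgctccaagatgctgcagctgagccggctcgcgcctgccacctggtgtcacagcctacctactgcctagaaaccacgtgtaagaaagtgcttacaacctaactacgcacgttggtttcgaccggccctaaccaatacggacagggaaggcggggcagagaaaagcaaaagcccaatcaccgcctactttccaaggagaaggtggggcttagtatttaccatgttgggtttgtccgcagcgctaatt
Adamts12: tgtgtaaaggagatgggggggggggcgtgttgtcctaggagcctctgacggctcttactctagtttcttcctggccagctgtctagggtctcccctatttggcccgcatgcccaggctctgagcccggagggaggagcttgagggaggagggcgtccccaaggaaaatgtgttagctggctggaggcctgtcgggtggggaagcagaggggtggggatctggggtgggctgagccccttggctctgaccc
Adamts1: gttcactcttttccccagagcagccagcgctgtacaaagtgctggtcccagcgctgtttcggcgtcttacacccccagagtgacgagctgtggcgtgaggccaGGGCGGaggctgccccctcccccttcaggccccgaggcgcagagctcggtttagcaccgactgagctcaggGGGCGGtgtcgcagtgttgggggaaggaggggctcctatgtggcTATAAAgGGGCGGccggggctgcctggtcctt
Mmp13: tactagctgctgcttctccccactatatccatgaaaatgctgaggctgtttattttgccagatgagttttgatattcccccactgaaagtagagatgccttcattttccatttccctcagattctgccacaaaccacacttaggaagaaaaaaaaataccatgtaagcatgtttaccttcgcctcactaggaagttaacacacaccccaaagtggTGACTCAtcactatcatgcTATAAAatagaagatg
Mmp3: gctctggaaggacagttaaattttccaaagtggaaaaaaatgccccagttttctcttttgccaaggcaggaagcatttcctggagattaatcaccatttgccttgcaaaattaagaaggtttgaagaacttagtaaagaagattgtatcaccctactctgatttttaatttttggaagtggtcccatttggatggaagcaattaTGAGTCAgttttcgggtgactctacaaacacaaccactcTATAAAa
Mmp7: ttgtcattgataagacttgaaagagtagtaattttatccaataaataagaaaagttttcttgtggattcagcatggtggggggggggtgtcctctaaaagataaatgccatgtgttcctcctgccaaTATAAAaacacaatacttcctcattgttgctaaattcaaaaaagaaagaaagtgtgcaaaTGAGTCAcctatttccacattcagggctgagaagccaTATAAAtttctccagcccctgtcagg

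The windows of *Mmp11* and *Adamts1* held 2 and 3 GGGCGG matches, and *Adamts1* also held 1 TATAAA. The windows of *Adamts17* and *Adamts12* held none of the 3 motifs. *Mmp13*, *Mmp3* and *Mmp7* each held 1 AP-1 match and 1 or 2 TATAAA matches. These windows held 0 or 1 CpG in 250 bases, against 14 in *Mmp11*, 13 in *Adamts17*, 6 in *Adamts12* and 15 in *Adamts1*.

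To ask where PBRM1 and BRG1 lay at these genes, a gene was counted as having a promoter peak when a summit fell within 2 kb of any of its annotated starts. Of the 45 genes, 10 (22.2%) had a promoter peak in all 6 library lists, against 41.4% of all protein-coding genes. A further 25 (55.6%) had one in 1 to 5 lists, against 23.7% of all, and 10 (22.2%) had one in none, against 34.9% of all. The 45 genes thus lay mostly between the extremes, while most genes as a whole had a peak in every list or in none. This share was not tested. In the deeper pooled lists a PBRM1 peak was found at 35 of the promoters and a BRG1 peak at 36, where 65.4% and 67.3% of all protein-coding genes had one.

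**Figure D1:**
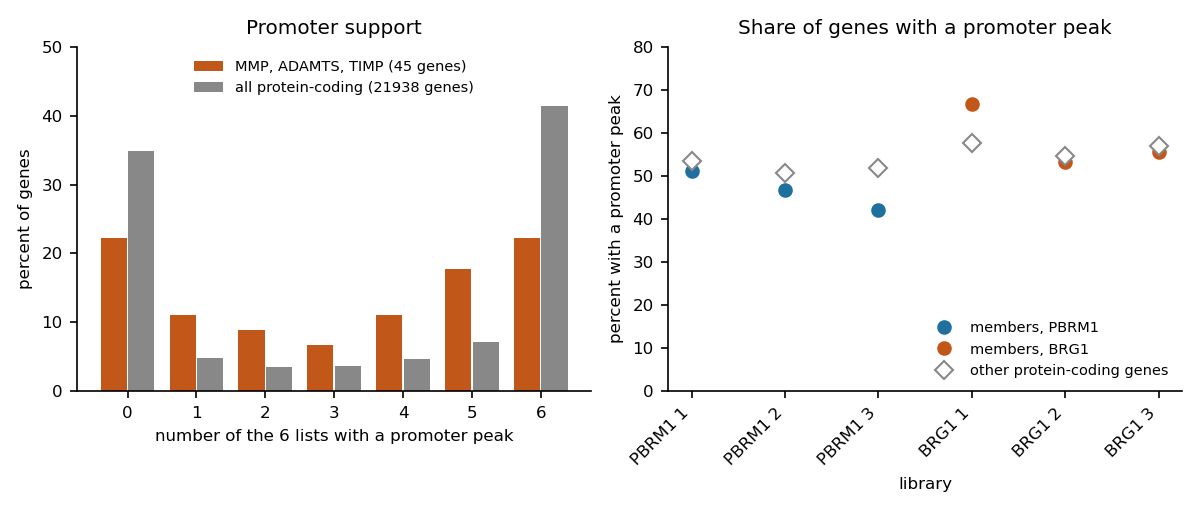
Left, percent of genes (y axis) by the number of the 6 library lists that hold a promoter peak (x axis), for the 45 MMP, ADAMTS and TIMP genes and for all 21938 protein-coding genes. Right, percent of the 45 genes (circles) and of the other protein-coding genes (diamonds) with a promoter peak in each library. The 45 genes sit above all genes at 1 to 5 lists and below them at 0 and 6, and more of them had a peak in each BRG1 library than in any PBRM1 library.

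More of these promoters had a BRG1 peak than a PBRM1 peak in the library lists. The PBRM1 libraries held promoter peaks at 23, 21 and 19 of the 45 genes, where 53.6%, 50.8% and 51.8% of all protein-coding genes had one. The BRG1 libraries held them at 30, 24 and 25, against 57.7%, 54.7% and 56.9% of all. The means were 21 ± 2 for PBRM1 and 26.3 ± 3.21 for BRG1 (SD, n = 3 each), a difference of 5.33 genes with no overlap between antibodies (exact permutation test, two-sided, p = 0.1, below which 3 against 3 cannot go). The other protein-coding genes moved the same way, from 52.1% ± 1.42 to 56.4% ± 1.55 (SD, n = 3 each, exact permutation p = 0.1). Without BRG1 replicate 1 the difference was 3.50 genes.

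By class, the proteoglycan-cleaving ADAMTS genes, the procollagen N-propeptidases and the TIMPs had a promoter peak in at least 1 library for every gene, 7, 3 and 4 in number. All 3 protein-coding collagenases (*Mmp1b*, *Mmp8* and *Mmp13*), matrilysin *Mmp7* and macrophage elastase *Mmp12* had none in any list. Of the 6 membrane-type MMPs, 3 or 4 had a peak in each library, and of the 9 other ADAMTS genes, 3 to 6 had one for PBRM1 and 5 to 7 for BRG1.

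**Figure D2:**
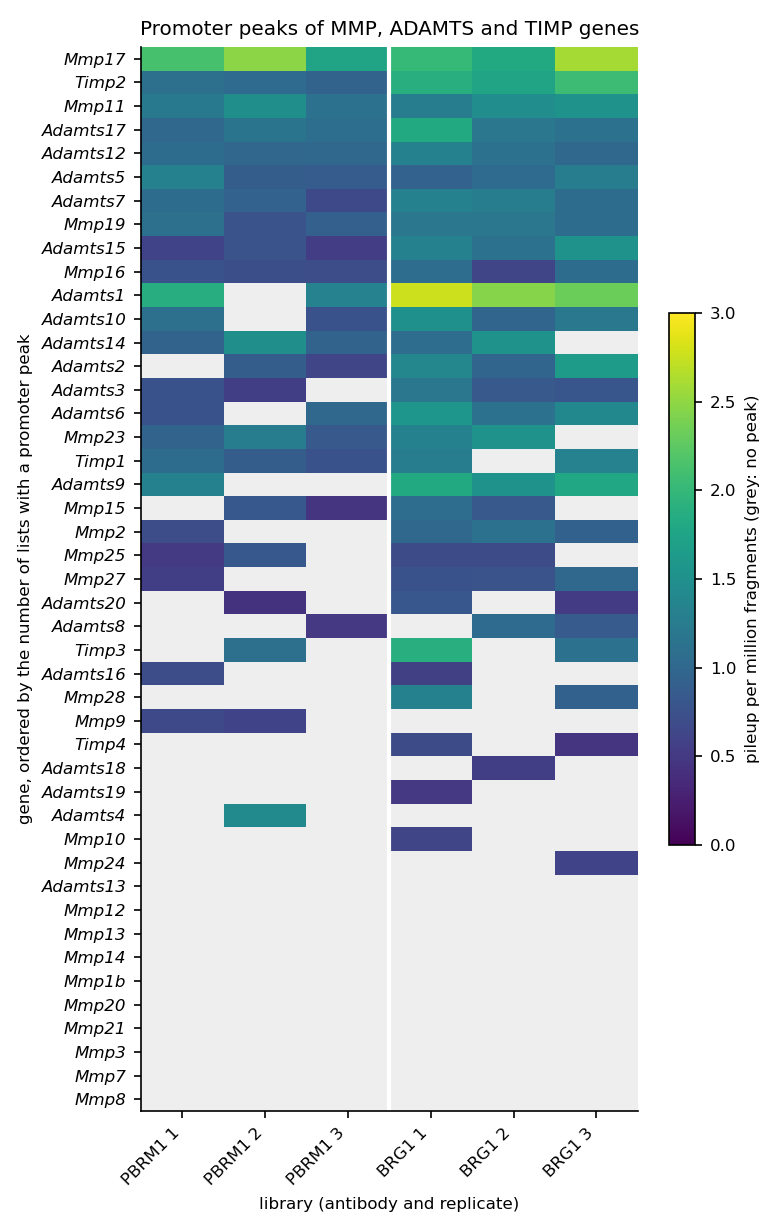
Promoter signal of the 45 genes (rows, ordered by the number of lists with a peak) in the 6 libraries (columns). Color gives the highest summit pileup per 1000000 fragments, and grey marks a list with no promoter peak. *Mmp17* was high in all 6 libraries, *Adamts1* was highest for BRG1 and had no peak in PBRM1 replicate 2, and the lowest 10 rows were grey throughout.

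Signal is given as the pileup at the summit, the number of fragments that cover it, per 1000000 fragments of the library. Where a gene had several promoter peaks in a library, the highest was taken. *Mmp17*, a membrane-type MMP held by a lipid anchor (chr5:129584169-129611099), had the highest mean among genes with a peak in all 6 lists. Its PBRM1 values were 2.12, 2.48 and 1.75 and its BRG1 values 2.01, 1.82 and 2.59, so the antibodies overlapped. The pooled PBRM1 peak covered chr5:129583849-129584367, with its summit 166 bp from the start, and stood 11.5-fold over the local background, against 7.40-fold for BRG1. *Timp2*, an inhibitor that also takes part in the activation of pro-MMP2, was next, at 1.11, 1.05 and 0.959 for PBRM1 and 1.89, 1.75 and 2.06 for BRG1. Every BRG1 library lay above every PBRM1 library at *Timp2*.

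The stromelysin *Mmp11*, known from remodeling stroma, gave 1.21, 1.49 and 1.13 for PBRM1 and 1.26, 1.47 and 1.53 for BRG1. Some of its promoter peaks also lay within 2 kb of a start of *Chchd10*. The strongest pooled *Mmp11* peaks lay at different places, with summits at chr10:75932307 for PBRM1 and chr10:75935726 for BRG1. The values of the antibodies at *Mmp11* may thus come from different peaks, and the printed window lies beside the PBRM1 summit only. *Adamts17* gave 1.01, 1.16 and 1.08 against 1.82, 1.19 and 1.13, and *Adamts12*, which cleaves cartilage oligomeric matrix protein, gave 1.06, 0.993 and 1.00 against 1.32, 1.12 and 0.998. In these 3 genes the values of the antibodies overlapped.

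*Adamts5*, an aggrecanase, gave 1.31, 0.883 and 0.875 for PBRM1 and 0.944, 1.05 and 1.26 for BRG1. Its summits lay far from the start, and only 2 of its 6 lists were kept when the distance was set to 1 kb. *Adamts7*, which also cleaves cartilage oligomeric matrix protein, gave 1.06, 0.938 and 0.667 against 1.32, 1.26 and 1.06, with the lowest BRG1 library about level with the highest PBRM1 library.

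*Mmp19* gave 1.11, 0.772 and 0.917 for PBRM1 and 1.20, 1.19 and 1.06 for BRG1. *Adamts15*, a proteoglycan-cleaving enzyme, gave 0.606, 0.772 and 0.542 against 1.32, 1.12 and 1.53, and was the other gene besides *Timp2* with a wide gap between antibodies. The membrane-type *Mmp16* was the lowest of the 10, at 0.758, 0.717 and 0.709 for PBRM1 and 1.07, 0.630 and 1.06 for BRG1.

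These 10 promoters were weak among the 9092 promoters with a peak in all 6 lists. Their means over 6 libraries ran from 0.825 to 2.13 with a median of 1.07, against a median of 1.63 for all 9092, and 9 of the 10 lay below that median. *Mmp17* ranked 2123 of 9092, *Timp2* 5671 and *Mmp16* 8919. With a stricter peak threshold (−log10 q of at least 5) only *Mmp17* of the 45 genes kept a peak in all 6 lists. At 3 of the 10 (*Timp2*, *Adamts7* and *Adamts15*) every BRG1 library lay above every PBRM1 library, against 73.4% of the 9092, and the reverse held at 0, against 0.121%.

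Whether the 2 antibodies differed at single promoters was tested with limma on the log2 of this normalized pileup over all 9092 promoters. *Adamts15* was higher for BRG1 by 1.05 ± 0.20 on the log2 scale (SE, 3 libraries each, limma adjusted p = 0.00024), *Timp2* by 0.87 ± 0.18 (adjusted p = 0.00056) and *Adamts7* by 0.47 ± 0.20 (adjusted p = 0.034). These are 2.07-, 1.83- and 1.39-fold. *Adamts15* and *Timp2* were called with any single library left out, whereas the call at *Adamts7* was lost without PBRM1 replicate 3, BRG1 replicate 1 or BRG1 replicate 2 (adjusted p = 0.19, 0.11 and 0.086). Without BRG1 replicate 2 *Mmp16* was called as well, at 0.55 (adjusted p = 0.024), and without PBRM1 replicate 2 a total of 5 genes were called. The other 7 genes were not called with all libraries, with log2 differences from 0.01 ± 0.20 for *Mmp17* to 0.32 ± 0.20 for *Adamts17* (SE). The 3 called of 10 stand beside a background in which 75.1% of all promoters tested were higher for BRG1 and 0.088% higher for PBRM1.

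Most promoters thus shifted toward BRG1 on this scale, with a median log2 difference of 0.59. Only *Adamts15* and *Timp2* of the 10 lay above that median. Every BRG1 library had fewer fragments than every PBRM1 library. In this shift depth and antibody cannot be told apart, and the part of depth was not tested. When each library was centred on its own median, 0 of the 10 genes were called by limma (5 had an unadjusted p under 0.05), against 0.187% of all promoters higher for BRG1 and 0.462% higher for PBRM1. The centred log2 differences were 0.44 ± 0.17 for *Adamts15* and 0.25 ± 0.16 for *Timp2*, with adjusted p of 0.25 and 0.49, and were negative for the other 8, down to -0.60 ± 0.17 for *Mmp17* (SE, adjusted p = 0.11). On fold enrichment over the local background, *Mmp17* alone was called, and was higher for PBRM1 by a log2 difference of -0.59 (BRG1 minus PBRM1, limma adjusted p = 0.015). On that measure 15.9% of all promoters were higher for BRG1 and 0.187% higher for PBRM1. With a peak required in at least 2 lists of each antibody, 10 of 20 members were called, all higher for BRG1, against 70.0% of all promoters higher for BRG1 and 0.126% higher for PBRM1.

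**Figure D3:**
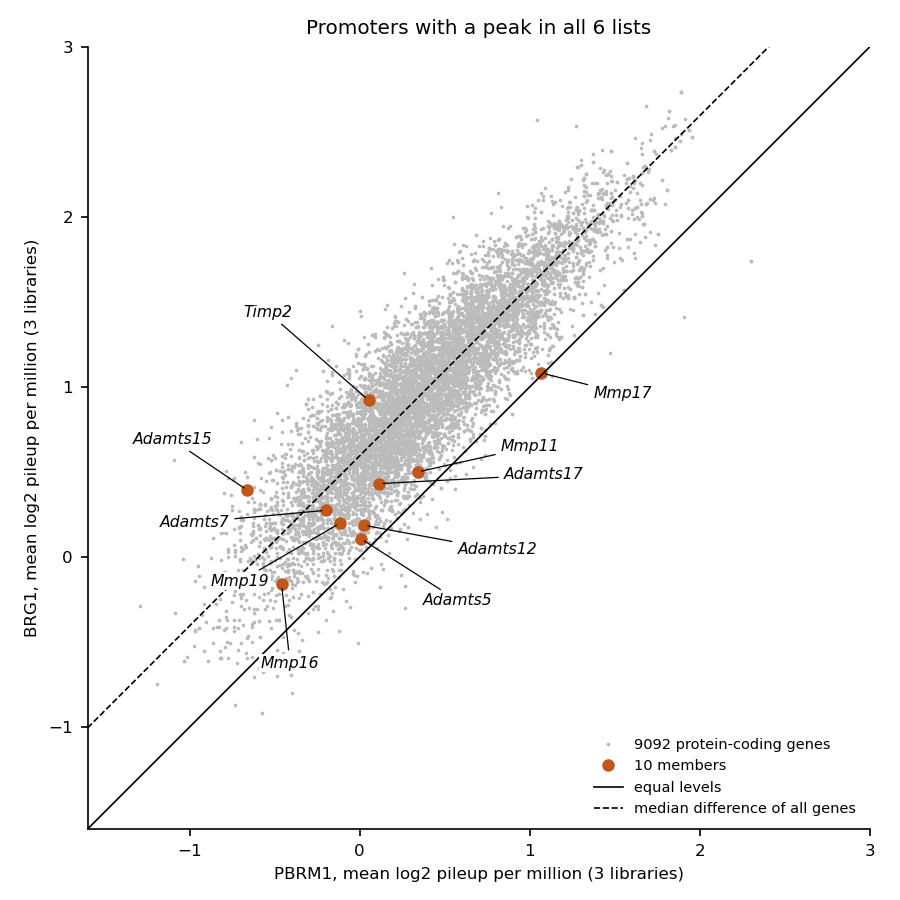
Mean log2 pileup per 1000000 fragments over 3 PBRM1 libraries (x axis) and 3 BRG1 libraries (y axis) for the 9092 protein-coding genes with a promoter peak in all 6 lists, with 5 genes outside the axes. The solid line marks equal levels and the dashed line the median difference of all genes, 0.59. The 10 labeled genes lie low in the cloud, *Adamts15* and *Timp2* above the dashed line, and *Mmp17* on the solid line.

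Of the genes without a peak in all 6 lists, *Adamts1* had the highest BRG1 signal of the 45. *Adamts1* encodes a protease of versican and aggrecan that is known from ovulation. Its values were 2.77, 2.45 and 2.33 for BRG1, a mean of 2.51 ± 0.23 (SD, n = 3), and 1.87 and 1.33 in PBRM1 replicates 1 and 3, with no promoter peak in PBRM1 replicate 2. The pooled BRG1 peak covered chr16:85802391-85803461 and reached 5.16-fold over the local background. All 3 procollagen N-propeptidases were found in 5 lists each. *Adamts2* was missing in PBRM1 replicate 1, *Adamts3* in PBRM1 replicate 3 and *Adamts14* in BRG1 replicate 3.

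Promoter support was higher for BRG1 by at least 2 of 3 libraries at 5 genes, against 4.3% of all protein-coding genes, and higher for PBRM1 at 1 gene, against 1.02% of all. *Adamts9*, a versican-cleaving enzyme, gave 1.82, 1.54 and 1.80 for BRG1, the highest of the 5, and 1.31 in PBRM1 replicate 1 alone. Gelatinase A, *Mmp2*, gave 1.01, 1.12 and 0.931 for BRG1 and 0.707 in PBRM1 replicate 1. *Mmp27* gave 0.755, 0.770 and 0.998 for BRG1 and 0.556 in PBRM1 replicate 1, from summits that mostly lay more than 1 kb from its starts.

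*Mmp28*, also called epilysin, had peaks in BRG1 replicates 1 and 3, at 1.32 and 0.931, and in no PBRM1 library. *Timp4* followed the same pattern at 0.692 and 0.466. Gelatinase B, *Mmp9*, went the other way, with 0.657 and 0.607 in PBRM1 replicates 1 and 2 and no BRG1 peak. The *Mmp9* summit lay 1919 bp from the nearest start and dropped out at 1 kb. In the pooled lists all 6 of these genes had a promoter peak for both antibodies, so the antibodies differed here in how many libraries passed the peak threshold, and this was not tested gene by gene.

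The 4 inhibitors differed in support. *Timp2* is described above. *Timp1*, on chromosome X and known as an inducible inhibitor, gave 1.06, 0.883 and 0.750 for PBRM1 and 1.26 and 1.33 in BRG1 replicates 1 and 3, with no peak in BRG1 replicate 2. *Timp3* had a peak of 1.10 in PBRM1 replicate 2 and of 1.89 and 1.13 in BRG1 replicates 1 and 3. Both peaks of *Timp4* also lay within 2 kb of a start of *Syn2*, the gene in which it is nested. Every PBRM1 value of *Timp1* lay below both of its BRG1 values, whereas at *Timp3* the values of the antibodies nearly met.

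*Mmp14*, the membrane-type enzyme that activates pro-MMP2, had no promoter peak in any library list. The pooled PBRM1 list held 2, the stronger at chr14:54430756-54430941, with a normalized pileup of 1.03 that was only 2.16-fold over the local background. The pileup was within the range of genes found in all 6 lists, and the fold over local background was lower. A region inside an intron of *Mmp14*, 11.8 kb from its start, had a peak in 5 lists, at 1.01 and 1.08 in PBRM1 replicates 1 and 3 and 1.32, 1.82 and 1.53 for BRG1, all above both PBRM1 values. *Adamts13*, the protease of von Willebrand factor, had a promoter peak in the pooled BRG1 list alone.

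No list held a promoter peak for 8 genes, *Mmp1b*, *Mmp3*, *Mmp7*, *Mmp8*, *Mmp12*, *Mmp13*, *Mmp20* and *Mmp21*. All but *Mmp21* belong to the *Mmp* gene cluster on chromosome 9, where 10 *Mmp* genes, 9 of them protein-coding, stand in 427 kb (chr9:7272514-7699585). The PBRM1 libraries had 1, 0 and 1 summits in this cluster and the BRG1 libraries 4, 1 and 1, where their genome-wide means for a stretch of this length were 5.01 to 6.18. The pooled lists had 8 and 5 summits against 14.8 and 15.1. Only the 2 other genes of the cluster had promoter peaks, *Mmp27* in 4 lists and *Mmp10* (stromelysin-2) at 0.629 in BRG1 replicate 1.

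**Figure D4:**
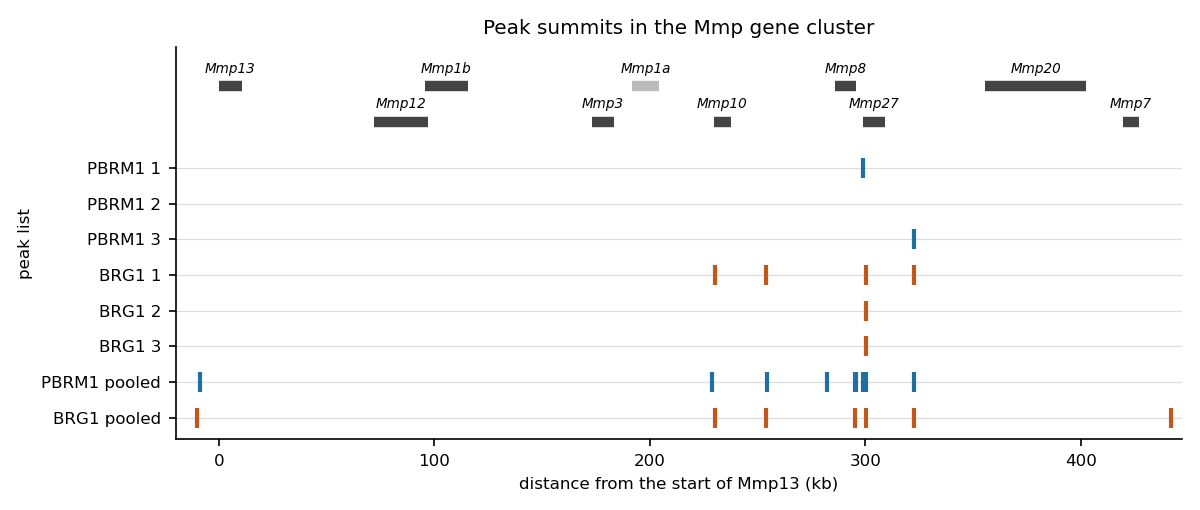
Peak summits (ticks) in the 6 library lists and the 2 pooled lists (y axis) over the *Mmp* gene cluster, by distance from the start of *Mmp13* in kb (x axis). Dark bars are protein-coding genes and the light bar is *Mmp1a*. Summits gather at *Mmp27* and are missing from *Mmp13*, *Mmp12*, *Mmp1b*, *Mmp3*, *Mmp20* and *Mmp7*.

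The 8 promoters without a peak were poor in CpG. All 8 genes had RefSeq entries, 10 in number, with a median ratio of observed to expected CpG of 0.08 (range 0.00 to 0.40) in the 250 bases before the start. The median was 0.37 over all 32841 RefSeq promoters, 0.18 for protein-coding genes with a promoter peak in 0 of 6 lists and 0.74 for those with 6 of 6. The 8 genes were also absent from both pooled lists, which was not required of the genes with 0 of 6 lists. *Mmp14* and *Adamts13* had 0 of 6 lists but a pooled peak, with ratios of 0.53 and 0.06. Neither held TGANTCA or TATAAA, and *Mmp14* held 2 GGGCGG matches. TGANTCA was present upstream of 6 of the 8 genes, *Mmp1b*, *Mmp3*, *Mmp7*, *Mmp12*, *Mmp13* and *Mmp20*, in 60% of their entries against 6.75% of all entries and 9.47% of those with 0 of 6 lists. TATAAA was likewise present for 6 of the 8 genes, in 60% of their entries against 12.4% of all entries and 21.5% of those with 0 of 6 lists. GGGCGG was found in none of the 10 entries, against 32.7% of all entries and 15.5% of those with 0 of 6 lists. A low CpG ratio was not confined to these 8 genes. Among members with a promoter peak it was 0.12 at *Mmp10* (1 list), 0.12 at *Timp4* (2 lists) and 0.21 at *Mmp27* (4 lists), and reached 0.98 at *Adamts14* (5 lists). *Mmp10* also held 1 TGANTCA and 1 TATAAA match, and *Timp4* and *Mmp27* held neither. A match describes the letters and not a bound site. Over all 45 genes such a check is void, since only 31 (68.9%) had an entry.

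Away from promoters, summits in the gene bodies and 20 kb flanks were counted when more than 2 kb from every annotated start of any gene. The PBRM1 libraries had 66, 41 and 64 such distal peaks at these loci and the BRG1 libraries 68, 66 and 72. Per 1000 peaks of the list these were 1.73, 1.28 and 1.69 for PBRM1 and 1.72, 1.87 and 1.92 for BRG1, with means of 1.57 ± 0.25 and 1.84 ± 0.10 (SD, n = 3 each). The difference of 0.27 did not hold up against the spread (two-sided exact permutation test, p = 0.2), and was 0.13 without PBRM1 replicate 2, the library with fewest peaks, and 0.048 with 50 kb flanks.

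Per Mb of locus away from starts, the counts were 16.2, 10.0 and 15.7 for PBRM1 and 16.6, 16.2 and 17.6 for BRG1, over 4.08 Mb. The loci of all protein-coding genes together had 12.4, 9.94 and 12.6 for PBRM1 and 12.5, 11.1 and 11.8 for BRG1. The loci of *Adamts12*, *Adamts6* and *Adamts16* held 66 of the 175 merged distal regions in 0.701 Mb. They were picked for holding the most regions, so the values outside them had to be lower and are given as a description. Outside these 3 loci the values were 13.3, 7.98 and 13.3 for PBRM1 and 13.0, 13.0 and 13.3 for BRG1, still above those of all genes in every library but PBRM1 replicate 2. No distal region was found at 11 genes, among them *Timp1*, *Mmp15* and 7 genes of the chromosome 9 cluster.

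Of the 175 distal regions, 87 (49.7%) had a peak in 1 list alone, against 53.8% of all distal regions in the genome, and 15 (8.57%) had a peak in all 6 lists, against 7.76%. Of the 15, 8 lay in introns, 6 in upstream flanks and 1 in a downstream flank. *Timp2* had 3 of them, *Adamts2* 2, and 10 other genes had 1 each.

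Windows of 300 bases centred on the pooled BRG1 summit are shown on the plus strand of GRCm38.p6 for the 2 strongest distal regions, upstream of and inside *Timp2* (chr11:118363187-118363486 and chr11:118327526-118327825), and for both regions of *Adamts2* (chr11:50622419-50622718 and chr11:50632363-50632662), where the antibodies differed most. None overlaps an annotated exon. Capitals again mark the 3 motifs, and the intronic *Timp2* window alone held a match, to the AP-1 motif.
Timp2, 7.6 kb upstream: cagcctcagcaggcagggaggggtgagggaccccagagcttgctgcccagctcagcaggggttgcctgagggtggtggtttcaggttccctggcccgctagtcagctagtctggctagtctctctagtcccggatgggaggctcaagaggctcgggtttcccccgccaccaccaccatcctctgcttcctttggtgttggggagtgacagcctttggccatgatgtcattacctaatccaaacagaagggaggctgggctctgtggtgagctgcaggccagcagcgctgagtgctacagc
Timp2, 28.1 kb into the gene: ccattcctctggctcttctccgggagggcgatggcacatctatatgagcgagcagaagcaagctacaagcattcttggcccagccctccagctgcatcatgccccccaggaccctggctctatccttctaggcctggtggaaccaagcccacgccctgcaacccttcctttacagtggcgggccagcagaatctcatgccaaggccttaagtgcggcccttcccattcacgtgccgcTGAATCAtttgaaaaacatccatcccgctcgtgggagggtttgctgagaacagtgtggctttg
Adamts2, 20.5 kb into the gene: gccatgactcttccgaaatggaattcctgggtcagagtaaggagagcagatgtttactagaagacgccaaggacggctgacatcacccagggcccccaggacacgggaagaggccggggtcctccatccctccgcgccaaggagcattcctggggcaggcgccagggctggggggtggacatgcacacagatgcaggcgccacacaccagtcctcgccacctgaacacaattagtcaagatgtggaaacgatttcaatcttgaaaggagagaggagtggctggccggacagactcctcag
Adamts2, 30.4 kb into the gene: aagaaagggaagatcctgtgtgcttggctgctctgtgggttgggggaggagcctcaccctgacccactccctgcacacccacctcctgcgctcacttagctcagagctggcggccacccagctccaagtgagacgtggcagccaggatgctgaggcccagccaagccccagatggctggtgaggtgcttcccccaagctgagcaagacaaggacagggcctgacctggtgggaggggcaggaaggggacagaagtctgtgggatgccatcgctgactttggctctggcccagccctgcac

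TGANTCA was found in 5 of the 15 windows (33.3%), against 30.9% of the 4450 distal regions found in every library list, so the share was near that of all such regions. The median CpG ratio was 0.18 in the 15 and 0.24 in all.

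The *Timp2* region 7.6 kb upstream gave normalized pileups of 1.62, 2.37 and 1.54 for PBRM1 and 2.33, 1.68 and 2.33 for BRG1, and ranked 192 of 4450. The region 28.1 kb inside *Timp2* gave 1.92, 1.99 and 1.42 against 2.26, 1.75 and 1.73, and the one 9.5 kb upstream 1.57, 1.49 and 1.54 against 2.01, 2.10 and 2.00. At the last of these all BRG1 values lay above all PBRM1 values, and at the first pair the antibodies overlapped.

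The intronic *Adamts2* region at 20.5 kb (chr11:50622132-50622845) gave 1.11, 1.49 and 1.21 for PBRM1 and 1.89, 2.24 and 2.46 for BRG1. The second *Adamts2* region, at 30.4 kb (chr11:50632187-50632678), gave 0.606, 0.883 and 0.50 against 1.38, 1.47 and 1.20. *Adamts20*, an enzyme that cleaves versican, had an intronic region 20.5 kb from its start with 0.758, 1.16 and 0.917 against 1.32, 1.47 and 1.46. At these 3 regions every BRG1 library lay above every PBRM1 library.

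A region 39.6 kb inside *Timp3*, which is nested in *Syn3*, gave 1.21, 1.10 and 1.13 for PBRM1 and 1.70, 1.40 and 1.66 for BRG1. A region 12.4 kb from the start of *Adamts4*, past its end, gave 1.31, 1.10 and 1.17 against 1.57, 1.47 and 1.46. In both, all BRG1 values were the higher. Every BRG1 library thus lay above every PBRM1 library at 6 of the 15 regions, against 30.9% of the 4450, and the reverse held at 0, against 1.91%.

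In the others of the 10 strongest the antibodies overlapped. The region 13.0 kb upstream of *Adamts14* gave 1.31, 1.60 and 1.58 for PBRM1 and 1.38, 1.61 and 1.33 for BRG1, and the one 11.5 kb upstream of *Mmp19* gave 1.42, 1.49 and 0.917 against 1.45, 1.47 and 1.86. The region 19.8 kb upstream of *Timp4*, which lies inside *Syn2*, gave 1.26, 1.43 and 1.21 against 1.38, 1.40 and 1.33. *Adamts12* had an intronic region at 20.6 kb with 1.31, 1.55 and 1.04 against 1.51, 1.47 and 1.13.

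**Figure D5:**
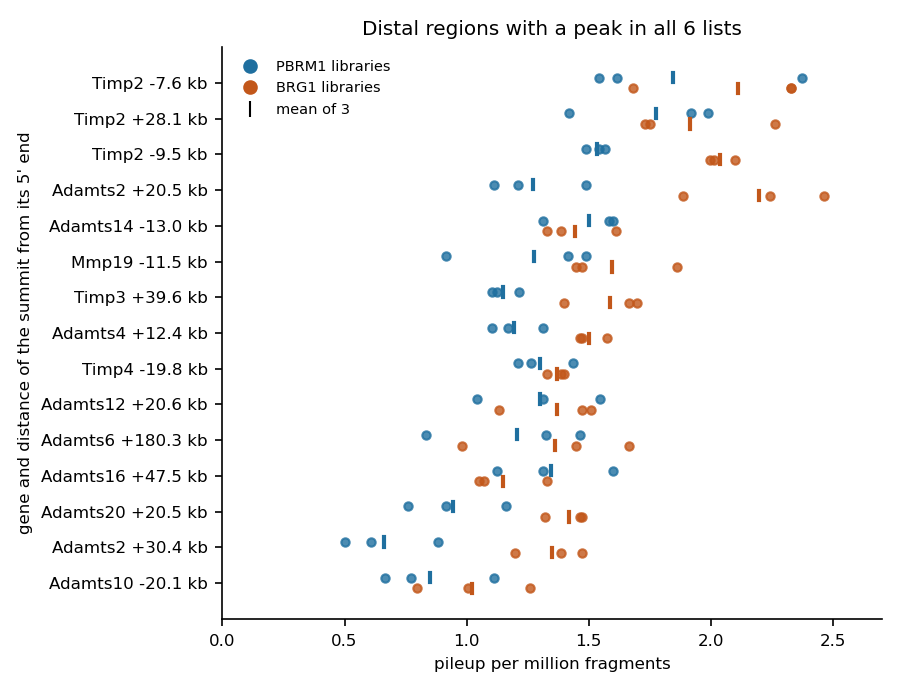
Pileup per 1000000 fragments (x axis) of the 15 distal regions with a peak in all 6 lists (y axis, gene and distance from its 5′ end, minus for upstream), with 1 point per library and a bar at the mean of 3. The BRG1 points lie above all PBRM1 points at both *Adamts2* regions and at the *Adamts20* region, and also at the *Timp2* region 9.5 kb upstream and those of *Timp3* and *Adamts4*, while the antibodies overlap at the others. Among all 4450 such regions 30.9% were separated in this direction.

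In the limma fit over the 4450 distal regions found in every library list, 3 of the 15 were called, all higher for BRG1. The *Adamts2* region at 30.4 kb was higher by 1.06 ± 0.22 on the log2 scale (SE, 3 libraries each, limma adjusted p = 0.0018), a 2.09-fold difference, the *Adamts2* region at 20.5 kb by 0.79 ± 0.21 (adjusted p = 0.011) and the *Adamts20* region by 0.61 ± 0.21 (adjusted p = 0.048). In the background 11.6% of all regions were higher for BRG1 and 0.427% higher for PBRM1, with a median log2 difference of 0.27. After centring on each library's median 1 of the 15 was called, the *Adamts2* region at 30.4 kb (log2 difference 0.81 ± 0.21, SE, adjusted p = 0.030), against 1.1% of all higher for BRG1 and 1.42% higher for PBRM1. The region at 30.4 kb was called with any single library left out. The region at 20.5 kb was lost without PBRM1 replicate 1, PBRM1 replicate 3 or BRG1 replicate 3 (adjusted p = 0.066, 0.050 and 0.060), which left 1 region called in each case, and the *Adamts20* region was kept only when PBRM1 replicate 2 was the library left out. On fold enrichment 0 of the 15 were called by limma, with 3 at an unadjusted p under 0.05, against 4.04% of all regions higher for BRG1 and 0.0674% higher for PBRM1.

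Distal regions held by 1 antibody alone were few. Peaks in 3 of 3 BRG1 and 0 of 3 PBRM1 lists occurred at 3 of the 175 regions, against 0.735% of all distal regions. They lay 128.2 kb from the start of *Adamts16*, past its end (normalized pileups of 0.881, 1.40 and 1.46), 160.0 kb inside *Adamts6* (0.818, 0.980 and 0.732) and 13.8 kb inside *Adamts5* (0.566, 0.490 and 0.599). The reverse occurred at 3 regions, against 1.5% of all. They lay 172.7 kb and 188.4 kb inside *Adamts6* (0.909, 0.883 and 0.959, and 0.960, 0.828 and 0.709) and 9.4 kb from the start of *Adamts1*, just past its end (0.758, 0.772 and 0.584). *Adamts6* thus held regions of both kinds within one gene. All 3 BRG1 regions overlapped a peak of the pooled PBRM1 list, whereas no pooled BRG1 peak overlapped the 3 PBRM1 regions.

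Related genes were counted in the same way, where 41.4% of all protein-coding genes had a promoter peak in all 6 lists and 34.9% in none. Of 11 regulators of these proteases, *Bsg*, *Lrp1*, *Plau* and *Reck* had a promoter peak in all 6 lists. *Reck* encodes a membrane-anchored MMP inhibitor, *Lrp1* an endocytic receptor that clears proteases, and *Plau* the urokinase that starts plasmin formation. Among 7 protein-coding ADAMTS-like genes, which lack the catalytic part, 4 had a peak in all 6 lists. Of 8 matrix substrates only *Lamc1*, a laminin chain, was found in all 6, and *Acan*, the aggrecan gene, in none. None of these related genes differed by 2 or more libraries between antibodies.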

How the data were processed

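ChIC-Seq peaks for PBRM1 and BRG1 in WT oviductal muscle cells on D2 of pregnancy were analyzed. Tools named in the submitters' processing notes are cutadapt, Bowtie2 and MACS2, with build GRCm38.p5. Per the file headers, the authors called peaks with MACS 2.2.7.1 on paired-end fragments with all duplicates kept, no control library, an effective genome size of 2300000000 bp, a q cutoff of 0.05 and a local background over 10 kb. The pileup deposited by the authors is the signal (fragment coverage) at the summit and was divided here by the fragments in the file header and multiplied by 1000000. Fold enrichment, as deposited, divides the pileup by the local background (a ratio), and q-values are deposited as −log10 q. Peak lengths are in bp. Without a control, sites cut regardless of the antibody could be called. Pileups rest on few fragments (13 to 129 at the pooled promoter peaks of the members), which limits their precision.

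Members and lists were chosen with earlier results of these data known, and several choices noted in the text were made after values were seen. Summits were joined to GENCODE M21 starts, where no peak end lay beyond its chromosome (0 in each list). Counts were compared by two-sided exact permutation tests over 3 against 3 libraries, and the log2 of this normalized pileup with limma 3.58.1 in R 4.3.3 with Benjamini-Hochberg adjustment at 0.05, over promoters, or merged distal regions (overlap of at least 1 bp), with a peak in all 6 lists. The fit was run on simulated data without a shift common to most promoters, so that run does not bear on the shift toward BRG1. Named were members with a peak in all 6 lists, those whose support differed by 2 or more libraries, those called, those in no list, each TIMP, and the 10 strongest distal regions plus those called or held by all 3 libraries of 1 antibody alone. The alternatives were other distances, flanks, thresholds, scalings and starts, equal numbers of peaks (31970), a replicate block and the omission of single libraries. Replicate numbers are shared between antibodies, but the deviations of same-numbered libraries from their group means correlated at -0.012, 0.025 and -0.0098, so the numbers were not taken as pairs. Promoter sequences came from RefSeq entries and distal windows from the GRCm38.p6 genome, read with pysam 0.24.0. A few results on single genes are not reported here. Python 3.11.15, numpy 2.4.6 and pandas 2.3.3 were used.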

Additional observations from a re-analysis of the deposited data

How the results depend on the processing

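The counts of promoters and of distal peaks kept their direction, BRG1 above PBRM1, under all alternatives run. The difference in genes with a promoter peak was 3.33 to 5.67 under other distances, starts, thresholds and equal peak numbers, and 3.5 to 6.5 with single libraries left out. The difference in distal peaks per 1000 was 0.048 to 0.31, and 0.13 to 0.35 with single libraries left out.

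The 3 promoters called became 0 with median centring or a −log10 q of at least 5 (where 1 member could be tested), 1 on fold enrichment, 10 of 20 tested with a peak in at least 2 lists of each antibody, and 2 to 5 with single libraries left out. Of all promoters with a peak in at least 2 lists of each antibody, 70.0% were called higher for BRG1. The 3 distal regions called became 1 with median centring or at −log10 q of at least 5, 0 on fold enrichment and 1 to 3 with single libraries left out. The mean-variance trend kept both counts at 3. The smaller numbers tested follow from the stricter threshold, and the cause of the other changes was not tested.

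Replicate numbers did not pair the libraries, and no library could be matched by its number to an animal or day. With a replicate block 3 promoters and 3 distal regions were called, and 0 and 1 with block and centring together. Over all features the block moved calls higher for BRG1 from 6829 to 6676 promoters and from 516 to 586 distal regions. Sign flips of the 3 numbered pairs gave p = 0.25 for the promoter count (difference 5.33), the smallest they can give, and p = 0.5 for distal peaks (difference 0.27, exact tests).

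Median centring, with or without the block, turned the log2 difference (BRG1 minus PBRM1) of promoters at *Adamts12* (-0.45), *Adamts17* (-0.30), *Adamts5* (-0.52), *Adamts7* (-0.14), *Mmp11* (-0.46), *Mmp16* (-0.32), *Mmp17* (-0.60) and *Mmp19* (-0.30), and of distal regions at *Adamts12* (-0.17), *Adamts6* 180.3 kb (-0.071), *Timp2* 28.1 kb (-0.14), *Timp2* 7.6 kb upstream (-0.045) and *Timp4* (-0.17). Fold enrichment turned promoters at *Adamts17* (-0.23), *Adamts5* (-0.028), *Mmp11* (-0.30) and *Mmp17* (-0.59) and distal regions at *Timp2* 28.1 kb (-0.35), *Timp2* 7.6 kb upstream (-0.17) and *Timp4* (-0.038). With single libraries left out the range crossed 0 at the promoters of *Mmp17* (-0.13 to 0.14) and *Adamts5* (-0.014 to 0.29) and at the distal regions of *Adamts12* (-0.068 to 0.22), *Adamts6* 180.3 kb (-0.066 to 0.40) and *Timp2* 28.1 kb (-0.040 to 0.20). Of 306 values of single promoters and regions under alternatives, 239 kept direction and side of the threshold and 40 changed sign. Of those with an unchanged sign, 26 lost a call and 1 gained one. Among the 40, the *Adamts7* promoter also lost its call with median centring, with or without the block. The *Mmp17* promoter gained a call on fold enrichment. Summits of few fragments limit all of these values.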
